A study of Rattus norvegicus and Mus musculus with 12 samples.

Results

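The genes described here are 45 genes of the interferon response and of antigen presentation, chosen by gene symbol with earlier results of these data known. All 45 were present in the rat table, which holds 19687 genes, and in the mouse table, which holds 28603. They were measured by RNA-seq in passage 1 articular chondrocytes, the cells of joint cartilage, from newborn (24 h old) Sprague–Dawley rats and C57BL/6 mice. The RC and MC groups were untreated rat and mouse chondrocytes, and the RM and MM groups were chondrocytes kept with 20 ng/ml of the inflammatory cytokine IL-1β for 24 h, with 3 libraries in each group and no other agent named. The strain label of the mouse libraries changed from library to library, between C57BL/6 and C57BL/9, whereas the methods name C57BL/6 alone. The study's methods call the samples of a group independent but do not say whether they came from separate animals or litters, so P values measure the spread between these samples, which may be technical in part. The comparison of model with control in each species asks how chondrocytes of the 2 species respond to the same cytokine.

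Type I interferons bind the receptor chains IFNAR1 and IFNAR2, which activate STAT2. STAT2 and IRF9 are parts of the complex ISGF3, which binds interferon-stimulated response elements (ISRE) in the promoters of antiviral genes such as Ifit1, Mx1 and Isg15. Interferon-γ binds IFNGR1 and IFNGR2 and acts through gamma-activated sites (GAS), which raises the transcription factor IRF1 and its targets, among them Gbp2, a GTPase that acts against intracellular microbes, and Tap1, which carries peptides to MHC class I. IRF1 is also known as a target of NF-κB, the factor that IL-1β activates. Unstimulated cells keep a low level of ISGF3-type genes through small amounts of interferon that they secrete themselves, and this is known as tonic signalling. Here Ifit1, Ifit2, Ifit3, Mx1, Mx2 and Isg15 are called the ISGF3-type genes, and Irf1, Gbp2 and Tap1 the IRF1-type genes.

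The promoters of 6 genes of the set are shown with their matches to ISRE and GAS. The 2 types are lists of gene names and were not defined by these matches. Irf1, Gbp2 and Tap1 are of the IRF1 type, Ifit3 is of the ISGF3 type, and Oas1a and B2m are of neither. The sequences are from RefSeq (rat assembly GRCr8), which matched 35 of the 45 symbols. Among those not matched were Ifit1, Ifit2, Isg15 and Mx2, and Mx1 was matched but held no ISRE core. Mouse promoters were not used here. Each stretch is the 160 bases before the annotated start, written 5′ to 3′ on the strand of the gene, with matches to the ISRE core (GAAANNGAA) and to GAS (TTCNNNGAA) on either strand in capitals. The positions are Irf1 at chr10:38417775-38417934 (plus strand), Gbp2 at chr2:234005567-234005726 (plus strand), Tap1 at chr20:4668544-4668703 (minus strand), Ifit3 at chr1:241527166-241527325 (plus strand), Oas1a, the gene of an antiviral 2′-5′ oligoadenylate synthetase, at chr12:41330306-41330465 (plus strand) and B2m, the light chain of MHC class I, at chr3:129549170-129549329 (plus strand).
Irf1: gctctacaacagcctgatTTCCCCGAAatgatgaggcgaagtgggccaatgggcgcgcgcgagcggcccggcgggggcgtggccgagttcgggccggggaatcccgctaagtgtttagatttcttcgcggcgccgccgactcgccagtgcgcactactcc
Gbp2: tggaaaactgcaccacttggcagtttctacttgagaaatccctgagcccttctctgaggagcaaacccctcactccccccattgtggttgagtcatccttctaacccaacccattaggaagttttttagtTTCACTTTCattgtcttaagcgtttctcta
Tap1: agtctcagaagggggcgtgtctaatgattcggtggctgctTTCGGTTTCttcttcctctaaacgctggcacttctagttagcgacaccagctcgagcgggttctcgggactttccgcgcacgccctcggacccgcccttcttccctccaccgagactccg
Ifit3: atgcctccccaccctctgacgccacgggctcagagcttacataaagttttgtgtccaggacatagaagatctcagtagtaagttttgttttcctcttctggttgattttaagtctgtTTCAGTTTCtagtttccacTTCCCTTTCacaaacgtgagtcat
Oas1a: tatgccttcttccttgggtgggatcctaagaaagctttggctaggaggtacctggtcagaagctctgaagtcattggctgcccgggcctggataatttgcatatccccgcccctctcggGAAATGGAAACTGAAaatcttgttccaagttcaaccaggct
B2m: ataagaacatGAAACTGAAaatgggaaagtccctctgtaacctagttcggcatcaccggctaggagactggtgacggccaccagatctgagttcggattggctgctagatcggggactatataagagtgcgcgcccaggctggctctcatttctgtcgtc
The capitals in Irf1 mark a GAS match and those in the other 5 promoters mark ISRE cores, of which Ifit3 held 2 separate ones and Oas1a 2 that overlap. In the full window, 250 bases before to 50 after the start, an ISRE core lay in 20 of the 35 promoters of the set (57.1%) against 9.71% of all 33469 promoters in the RefSeq table. A GAS match lay in 8 (22.9%) against 8.87%. A loose κB pattern (GGG and CC with any 5 bases between them, either strand) lay in 23 (65.7%) against 47.3%. A match is a run of letters and not a shown binding site.

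Between 16841580 and 25903459 reads were counted on genes per library. FPKM, a level per gene length, are the deposited counts divided by gene length and library total. Log2 fold changes are from edgeR, whose TMM scaling changed the mouse libraries by factors of 0.905 to 1.104. For this reason a mouse log2 fold change lies above what its FPKM values give, and with library size alone the median over all mouse genes moved from -0.02 to -0.30. The FPKM of the 2 mouse groups can thus lie apart with little change in the fit. Irf3 is such a gene (edgeR log2 fold change -0.08, adjusted P = 0.339). The share of all genes whose groups do not overlap was not counted. All 10 chondrocyte markers were expressed and all were lower in the model group in both species, their summed FPKM going from between 5081 and 5716 to between 2009 and 2053 in rat and from between 2404 and 2448 to between 210.3 and 223.9 in mouse. Of the 12 macrophage and leukocyte markers, 10 were in the rat table, 2 of them higher and 2 lower in the RM group, with a summed FPKM of 9.52 to 11.4 in RC and 10.2 to 14.3 in RM. All 12 were in the mouse table and 2 were higher in the MM group, with a summed FPKM of 4.75 to 5.73 in MC and 8.79 to 10.1 in MM. In mouse, 7 of the 12 had at most 3 counts in every library, Itgam had 0 counts in all 6 and the pan-leukocyte gene Ptprc summed to 3 counts in MC and 1 in MM. Summed dendritic, lymphocyte and endothelial markers each stayed at or under an FPKM of 0.891 in every library, and muscle markers at or under 4.3. Of the 6 fibroblast markers 3 were lower in RM, and 2 were higher and 3 lower in MM. In these bulk samples, fewer expressing cells and less RNA per cell cannot be told apart.

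Most of the interferon genes were lower in mouse chondrocytes after IL-1β, and few were called in rat. A gene is called higher or lower at a Benjamini-Hochberg adjusted P under 0.05 over all genes tested. The spread between libraries of a group, as the common biological coefficient of variation of edgeR, was 0.106 in rat and 0.0318 in mouse. A change of a given size is thus called more readily in mouse, and numbers of calls are not directly comparable between the species. In rat, 37 of the 45 genes had enough counts to be tested. Of these, 7 were higher in the RM group, against 18.3% of all rat genes tested, and 3 were lower, against 16.8%. In mouse, 43 were tested, of which 11 were higher in the MM group, against 37.4% of all mouse genes, and 28 were lower, against 37.7%. The median log2 fold change of the tested genes was 0.09 in rat (0.01 over all genes) and -1.17 in mouse (-0.02 over all genes). The study's methods set criteria for differentially expressed genes (DEGs) by P, fold change and FPKM. They were read here as P under 0.05 before adjustment, a log2 fold change of 0.85 or more in size, and 1 library or more with FPKM of 1 or above. The log2 scale of the fold threshold is a reading, since the methods do not name a scale. By these criteria, 24 mouse genes of the set were downregulated (13% of all mouse genes) and 5 upregulated (12.6%). In rat, 1 was downregulated (3.9%), and by edgeR 0 were upregulated (4.64%), although 12 had a higher level at an unadjusted P under 0.05, or 11 by DESeq2, which also called 0. Near the fold threshold in mouse, Ifitm2 lay just inside it at 0.852, Ifitm3 just outside at 0.847, and Irf5 at 0.849 also missed the FPKM criterion.

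**Figure D1:**
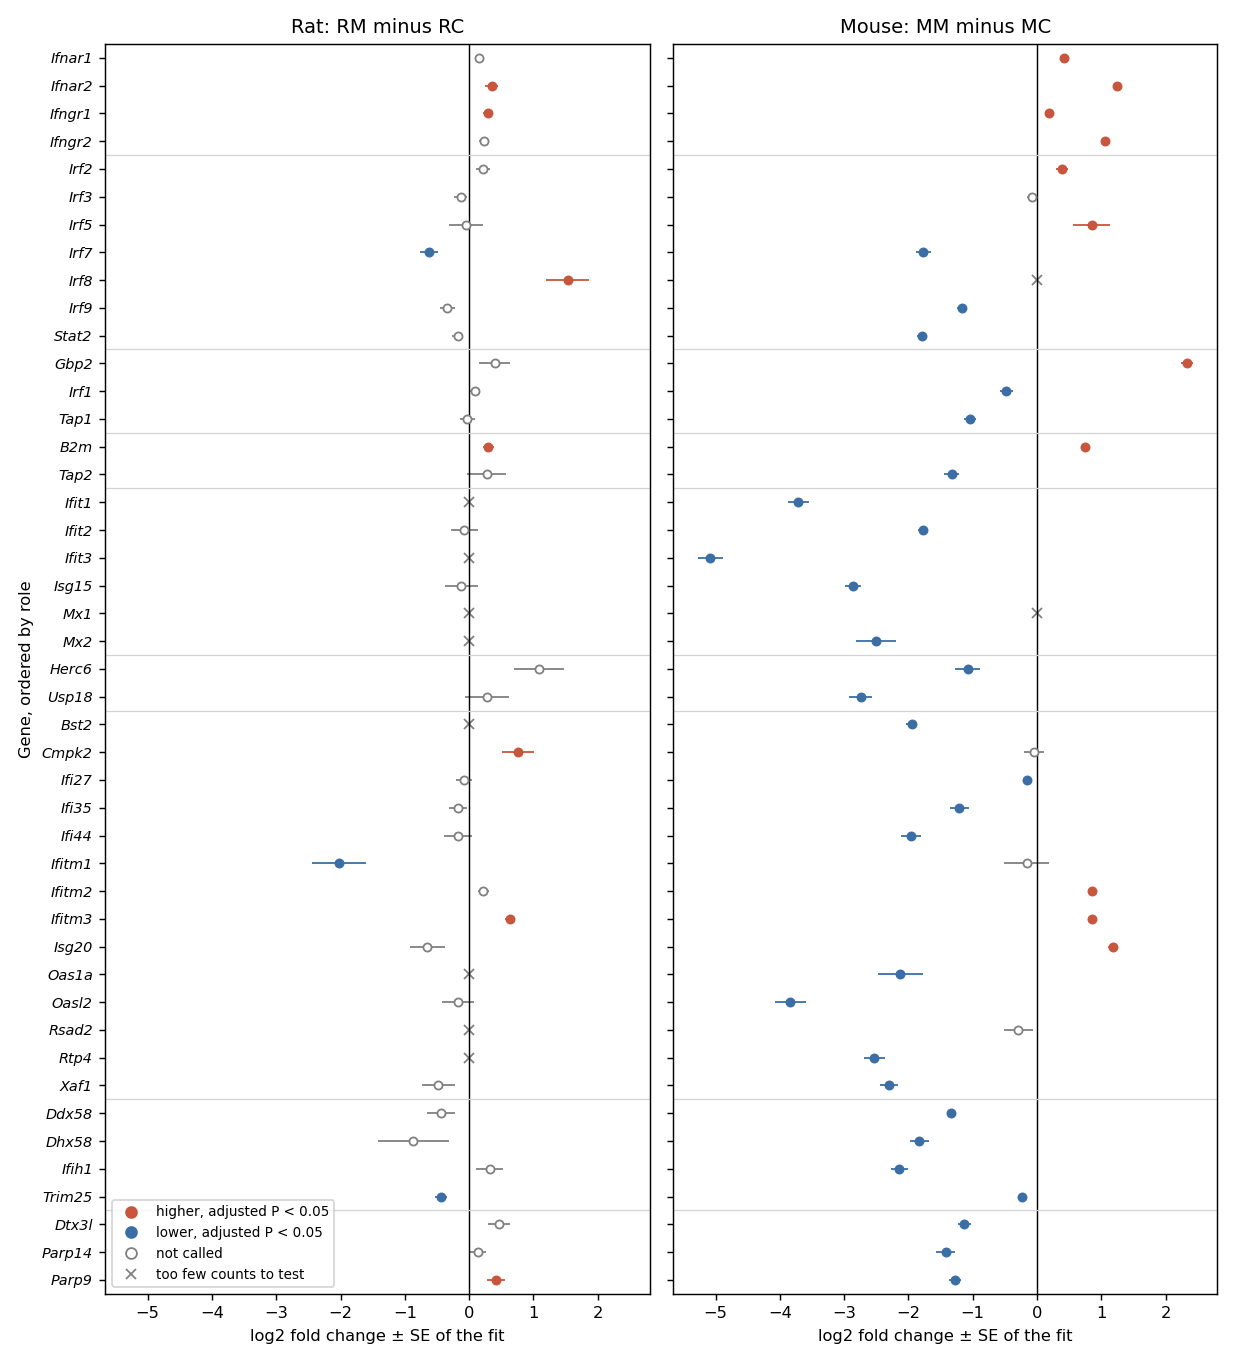
Log2 fold change of each of the 45 genes with an SE derived from the edgeR test, in rat (left) and mouse (right). Genes are ordered by role, with lines between the roles. Filled symbols are called genes, open symbols were not called and crosses at 0 mark the 8 rat and 2 mouse genes with too few counts to be tested. The mouse values reach from -5.08 (Ifit3) to 2.33 (Gbp2), the rat values from -2.03 (Ifitm1) to 1.53 (Irf8).

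The mouse libraries differed among themselves in these genes within both groups. MC replicate 2 had the highest FPKM of the MC libraries for 29 of 43 genes of the set with a mean of at least 20 counts (67.4%), against 32% of 13187 genes. MC replicate 3 had the lowest for 33 of them (76.7%), against 32.5%. All 6 ISGF3-type genes were highest in MC replicate 2, and 5 of the 6 were lowest in MC replicate 3. The median coefficient of variation over the MC libraries was 37.9% for the ISGF3-type genes, 12.1% for the 43 genes and 5.27% for all genes. Within the treated group, MM replicate 2 was highest for 24 of 38 genes of the set (63.2%), against 32.2% of all genes, and MM replicate 1 lowest for 23 (60.5%), against 35.8%. The median coefficient of variation over the MM libraries was 12.8% for these 38 genes and 5.22% for all genes. The 4 receptor genes varied little in MC, by a coefficient of 3.23% to 7.73%. No label gives a batch or a date for these libraries, so a batch was not tested. Leaving out MM replicate 2 ended no call of the set in mouse. Fold changes without MC replicate 2 are given below beside the genes they touch.

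**Figure D2:**
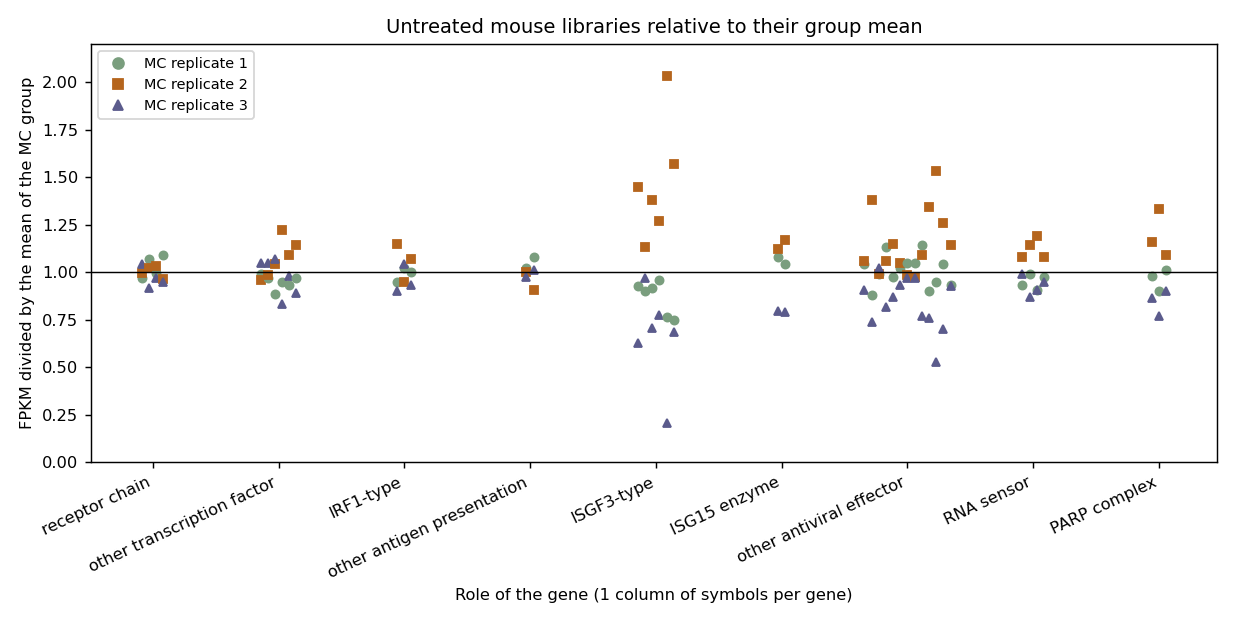
FPKM of each gene in the untreated mouse libraries divided by the mean of the MC group, with genes in columns by role and a symbol for each replicate. MC replicate 2 (squares) lies highest and MC replicate 3 (triangles) mostly lowest among the ISGF3-type genes, up to 2.03 times the mean for Mx1, whereas the receptor genes and B2m stay near 1.

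Of the interferon ligands, Ifne and Ifnk were analysed, and their counts were near 0. Ifne, an epithelial type I interferon, summed to 6 counts in RC and 16 in RM, and had 0 counts in every mouse library. Ifnk had 1 count in 1 MM library and 0 in the others. Ifnb1, the type I interferon that most cells can make, was not analysed here.

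All 4 receptor genes were called higher after IL-1β in mouse, by up to 2.36-fold, and 2 of them in rat, by up to 1.27-fold. Ifnar2 (chromosome 16, 91372783 to 91405589 in GRCm38, as are all mouse positions here) had an FPKM of 9.97, 9.49 and 8.55 in the MC libraries and 19.2, 18.1 and 17.2 in the MM libraries. Its log2 fold change was 1.24 (SE 0.06, adjusted P = 1.6e-28). Every MM library lay above every MC library. In rat, Ifnar2 was at 11.7, 12.1 and 12.5 in RC and at 14.7, 14.2 and 17.8 in RM, a log2 fold change of 0.35 (SE 0.10, adjusted P = 0.0203). The call was lost without RC replicate 3 (adjusted P = 0.0504) or RM replicate 3 (0.0911). Ifngr2 (chromosome 16, 91547072 to 91565623), the signalling chain of the interferon-γ receptor, was at 12.1, 10.8 and 10.6 in MC and at 19.0, 19.3 and 18.9 in MM, with a log2 fold change of 1.05 (SE 0.05, adjusted P = 1.44e-27). Its rat values of 10.8, 12.8 and 12.4 in RC and 14.4, 13.8 and 14.3 in RM did not overlap, but the log2 fold change of 0.23 (SE 0.08) had an adjusted P of 0.0589. Ifnar2 and Ifngr2 were the receptor genes past the DEG criteria in mouse.

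The other chain of each receptor changed less. Ifnar1 was at 14.4, 14.9 and 15.5 in MC and at 16.8, 15.9 and 16.6 in MM, a log2 fold change of 0.42 (SE 0.04, adjusted P = 6.82e-14) that was 0.14 with library size alone. In rat it was at 25, 25.7 and 25.6 in RC and 28.3, 29.5 and 28.5 in RM, with a log2 fold change of 0.16 (SE 0.07, adjusted P = 0.0789). Ifngr1, the ligand-binding chain for interferon-γ, was at 21.8, 21.5 and 22 in RC and at 28.6, 25 and 27.4 in RM, which was called at a log2 fold change of 0.29 (SE 0.08, adjusted P = 0.0134). That call was lost without RM replicate 1 (adjusted P = 0.0651) or RM replicate 3 (0.0501). In mouse, Ifngr1 has no settled direction. Its FPKM of 14.1, 14.7 and 13.8 in MC overlapped that of 12.9, 12.6 and 14.4 in MM, and its log2 fold change of 0.18 (SE 0.06, adjusted P = 0.0056) turned to -0.10 with library size alone.

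Stat2 and Irf9, which encode parts of ISGF3, fell in mouse. Stat2 (chromosome 10, 128270559 to 128292849) was at 14.2, 16.6 and 13.0 FPKM in MC and at 3.02, 4.06 and 3.30 in MM, a log2 fold change of -1.79 (SE 0.07, adjusted P = 8.95e-33). Irf9 (chromosome 14, 55603571 to 55610030), the DNA-binding part, was at 11.2, 13.0 and 11.8 in MC and at 3.94, 5.16 and 4.05 in MM, a log2 fold change of -1.17 (SE 0.07, adjusted P = 2.81e-24). The lowest MC library of each lay above the highest MM library. Without MC replicate 2, Stat2 had -1.69 and Irf9 -1.11. In rat, neither was called. Stat2 was at 10.8, 11.2 and 11.4 in RC and at 9.83, 10.8 and 9.10 in RM (log2 fold change -0.18, SE 0.08, adjusted P = 0.119). Irf9 was at 8.09, 8.06 and 9.37 in RC and at 6.73, 7.59 and 6.06 in RM (log2 fold change -0.34, SE 0.12, adjusted P = 0.0563). Leaving out 1 library brought rat Irf9 past the threshold without RC replicate 1 (adjusted P = 0.0254) or RM replicate 2 (0.0473), and Stat2 without RC replicate 1 (0.0417).

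Irf7, which amplifies the interferon response, was lower in both species. It was at 5.54, 7.14 and 4.85 FPKM in MC and at 1.11, 1.73 and 1.38 in MM, a log2 fold change of -1.77 (SE 0.12, adjusted P = 3.15e-20). In rat it was at 4.28, 4.60 and 5.35 in RC and at 3.27, 3.03 and 3.07 in RM, a log2 fold change of -0.62 (SE 0.14, adjusted P = 0.00554). The groups did not overlap in either species. Irf8, a factor best known from myeloid cells, was higher in rat but at a low level. It had 13, 8 and 6 counts in the RC libraries and 23, 25 and 32 in the RM libraries, a log2 fold change of 1.53 (SE 0.34, adjusted P = 0.00611) at an FPKM of at most 0.468. In mouse it summed to 12 counts in MC and 8 in MM, too few to be tested. The macrophage and leukocyte markers moved both ways in rat. Over the RC and RM groups Cd68 had 342 and 654 counts and Mrc1 79 and 185, both called higher, whereas Laptm5 had 531 and 178 and Csf1r 184 and 81, both called lower, and Ptprc had 20 and 16. The part of such cells in the Irf8 result was not tested. Irf2, a factor that competes with IRF1, was called in mouse at 0.39 (SE 0.09, adjusted P = 5.18e-05) but not with library size alone (0.11, adjusted P = 0.237). Irf5 was called in mouse at 0.85 (SE 0.29, adjusted P = 0.00646) on 65 and 106 counts over the groups, and not without MM replicate 3 (0.65, adjusted P = 0.07) or with library size alone (0.57, adjusted P = 0.0633). Irf3, which the RNA sensors activate by phosphorylation, had -0.08 in mouse (adjusted P = 0.339) and -0.13 in rat (0.368), and in mouse it became -0.36 (1.88e-05) with library size alone. In rat, Irf2 had 0.21 and Irf5 -0.05, neither called.

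The ISGF3-type genes were the most strongly lowered group in mouse. All 5 that could be tested were lower and past the DEG criteria, with a median log2 fold change of -2.86. Ifit3 (chromosome 19, 34583531 to 34588731), which with Ifit1 binds viral RNA, was at 21.7, 32.6 and 16.8 FPKM in MC and at 0.572, 0.557 and 0.590 in MM. This is a 33.8-fold fall (log2 fold change -5.08, SE 0.19, adjusted P = 2.76e-34), and 57 counts were left over the MM group. Mouse Ifit3 has a close copy, Ifit3b, between which the counting could have split reads, and Ifit3b fell as well (log2 fold change -4.63, SE 0.24, adjusted P = 3.24e-26). Ifit1 (chromosome 19, 34640871 to 34650009) was at 20.5, 31.9 and 13.8 in MC and at 1.31, 1.35 and 1.49 in MM, a 13.1-fold fall (log2 fold change -3.71, SE 0.16, adjusted P = 6.31e-30). Isg15 (chromosome 4, 156199424 to 156200818), a ubiquitin-like protein attached to other proteins, was at 38.2, 50.5 and 30.9 in MC and at 3.76, 5.55 and 4.24 in MM (log2 fold change -2.86, SE 0.13, adjusted P = 1.23e-28). The coefficient of variation of Ifit1 was 41.6% in MC and 6.58% in MM, whereas that of Isg15 was 24.9% and 20.5%, and the groups did not overlap for either gene. Ifit2 (chromosome 19, 34550694 to 34576419) fell least, from 11, 13.8 and 11.8 in MC to 2.76, 3.07 and 3.02 in MM (log2 fold change -1.77, SE 0.08, adjusted P = 1.24e-29).

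The Mx genes, GTPases that restrict viruses, were at lower levels. Mx2 (chromosome 16, 97535308 to 97560900) was at 0.841, 1.76 and 0.770 FPKM in MC and at 0.124, 0.198 and 0.158 in MM, a log2 fold change of -2.51 (SE 0.31, adjusted P = 7.02e-11). Mx1 (chromosome 16, 97447035 to 97462907) had 21, 55 and 6 counts in the MC libraries and 6, 1 and 0 in the MM libraries. It did not pass the filter on low counts, and without the filter its log2 fold change was -3.35 (SE 0.49, adjusted P = 4.79e-11). With MC replicate 2 left out, the log2 fold changes of the 5 tested genes were -4.78 (Ifit3), -3.35 (Ifit1), -2.65 (Isg15), -2.04 (Mx2) and -1.67 (Ifit2), with adjusted P of at most 9.61e-07.

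**Figure D3:**
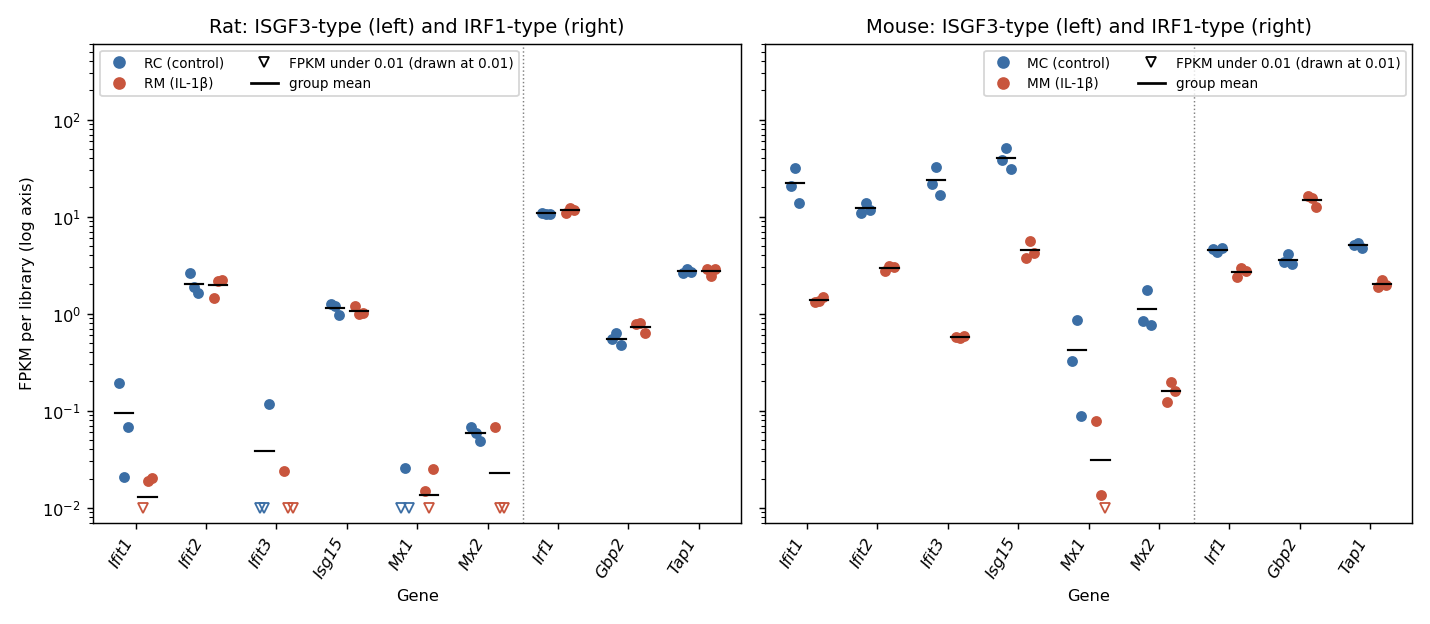
FPKM in every library on a log axis for the 6 ISGF3-type genes and, right of the dotted line, the 3 IRF1-type genes, in rat (left panel) and mouse (right panel), with control in blue, model in red and lines at the group means. Open triangles mark libraries under an FPKM of 0.01, drawn at that value. In mouse the 6 ISGF3-type genes fall and Gbp2 rises, and in rat the symbols of control and model lie at about the same height where the gene is expressed.

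In rat chondrocytes most ISGF3-type genes were barely expressed before treatment. Ifit1 had 10, 1 and 3 counts in RC and 0, 1 and 1 in RM, a ratio of 0.141 (95% interval 0.0156 to 0.615, for counting error only). Ifit3 had 5 counts over RC and 1 over RM, Mx1 2 and 3, and Mx2 12 and 4. At this depth no change was detectable for these genes by the fit without a filter, whose smallest adjusted P among them was 0.109. The remaining pair was expressed at a low level and was not called. Ifit2 was at 2.62, 1.87 and 1.64 FPKM in RC and at 1.45, 2.19 and 2.2 in RM (log2 fold change -0.08, SE 0.21, adjusted P = 0.8). Isg15 was at 1.25, 1.21 and 0.973 in RC and at 1.21, 0.999 and 1.02 in RM (log2 fold change -0.12, SE 0.25, adjusted P = 0.745). In both genes the groups overlapped. The difference of the log2 fold changes, mouse minus rat, was -1.69 for Ifit2 (95% interval -2.14 to -1.24, adjusted P = 6.1e-06) and -2.73 for Isg15 (-3.41 to -2.06, adjusted P = 2.51e-06). Ifit1, Ifit3 and the Mx genes did not pass the filter for this test, and without the filter their differences had an adjusted P of 0.207 or more.

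Of the other 14 antiviral effectors, 8 were lower in mouse, against 37.7% of all mouse genes, 3 were higher, against 37.4%, and 3 were not called. Oasl2 (chromosome 5, 114896936 to 114912234), a relative of the 2′-5′ oligoadenylate synthetases, went from a mean FPKM of 1.74 ± 0.526 (SD, n = 3) to 0.0994 ± 0.0527 (log2 fold change -3.84, SE 0.24), and Oas1a had -2.13. Bst2 (chromosome 8, 71534255 to 71537456), which tethers budding viruses to the cell surface, was at 115.9, 117.3 and 100.4 in MC and at 15.7, 32.7 and 22.7 in MM, a log2 fold change of -1.95 (SE 0.09, adjusted P = 6.31e-30). Xaf1, a pro-apoptotic protein, was at 3.77, 4.62 and 3.76 in MC and at 0.596, 0.938 and 0.464 in MM, a log2 fold change of -2.31 (SE 0.14, adjusted P = 3.51e-23). By FPKM, Bst2 had the highest level of the lowered genes of the set in MC. Rtp4 had a log2 fold change of -2.53, Ifi44 -1.96 and Ifi35 -1.21. Ifi27 was called at -0.15 (adjusted P = 0.00609), but not without MM replicate 1 (-0.05, adjusted P = 0.335) or MM replicate 3 (adjusted P = 0.0501), nor by DESeq2. Rsad2 (-0.29, adjusted P = 0.223) and Cmpk2 (-0.05, adjusted P = 0.772), which are neighbours in the genome and make or use antiviral nucleotides, were not called. Without MC replicate 2 their values were 0.14 and 0.25, and with library size alone both were called lower (-0.57 and -0.33).

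The exceptions in mouse were Isg20 and members of the Ifitm family. Isg20 (chromosome 7, 78913424 to 78920396), an RNA exonuclease, rose from a mean FPKM of 7.03 ± 0.328 (SD, n = 3) to 13.2 ± 0.515 (log2 fold change 1.18, SE 0.08, adjusted P = 8.27e-20). Ifitm3 (chromosome 7, 141009586 to 141010770), a membrane protein that hinders viral entry, was at 383.1, 358.4 and 352.9 in MC and at 490.2, 582.4 and 550.2 in MM (log2 fold change 0.85, SE 0.04, adjusted P = 3.25e-30). Its neighbour Ifitm2 rose from 73.0 ± 4.46 to 108.7 ± 8.34 (log2 fold change 0.85, SE 0.05). The Ifitm genes are close relatives among which reads could have been split. Ifitm1 was near an FPKM of 1 in both mouse groups and was not called (-0.16, adjusted P = 0.694).

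In rat, Ifitm3 had the smallest P of the set. It was at 72.1, 68.7 and 80.1 FPKM in RC and at 110.4, 123.0 and 115.3 in RM, without overlap (log2 fold change 0.64, SE 0.08, adjusted P = 0.0002). Ifitm1 moved the other way, from 1.63, 1.52 and 1.83 in RC to 0.349, 0.204 and 0.661 in RM (log2 fold change -2.03, SE 0.42, adjusted P = 0.00416), on 65 and 16 counts over the groups. Cmpk2 was at 0.659, 1.05 and 0.888 in RC and at 1.29, 1.99 and 1.14 in RM (log2 fold change 0.76, SE 0.25, adjusted P = 0.0385). Its call was lost when RC replicate 1, RC replicate 3, RM replicate 1 or RM replicate 2 was left out (adjusted P of 0.0594 to 0.182). Of the other rat effectors, Isg20 (-0.65), Xaf1 (-0.48), Oasl2 (-0.18), Ifi44 (-0.17), Ifi35 (-0.17), Ifi27 (-0.08) and Ifitm2 (0.22) were not called, and Oas1a, Rsad2, Bst2 and Rtp4 had too few counts, at most 26 over a group.

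The cytoplasmic RNA sensors and the enzymes of ISG15 were lower in mouse as well. Ddx58 (chromosome 4, 40203773 to 40239828), which encodes RIG-I, was at 12.4, 14.3 and 13.1 FPKM in MC and at 3.90, 4.71 and 4.31 in MM (log2 fold change -1.34, SE 0.06, adjusted P = 2.61e-31). Ifih1, which encodes MDA5, had -2.14 (SE 0.13), and Dhx58, which encodes LGP2, had -1.83 (SE 0.15). Trim25, the ubiquitin ligase that assists RIG-I, fell by 0.24 on the log2 scale (SE 0.05, adjusted P = 1.81e-05). In rat, Trim25 alone of these was called, at 25.6, 32.1 and 28.7 in RC and 20.8, 21.9 and 21.9 in RM (log2 fold change -0.44, SE 0.09, adjusted P = 0.00404). Rat Ddx58 had -0.44, Ifih1 0.32 and Dhx58 -0.87, the last on 46 and 25 counts, and the call of Ddx58 was gained without RC replicate 3 (-0.66, adjusted P = 0.0244) and that of Ifih1 without RC replicate 1 (0.53, adjusted P = 0.0295). Usp18, which removes ISG15 and dampens the receptor, fell in mouse by 2.74 on the log2 scale (SE 0.18), and Herc6, the ISG15 ligase of rodents, fell by 1.08 (SE 0.19). In rat Usp18 had 0.28 and Herc6 1.08 (SE 0.39, adjusted P = 0.0537) on 46 and 100 counts, and Herc6 was called without RC replicate 1 (1.60, adjusted P = 0.00552).

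Parp9, Dtx3l and Parp14, ADP-ribosyltransferases and a ubiquitin ligase that work together, differed in their response between the species, by -1.69 (Parp9), -1.59 (Dtx3l) and -1.56 (Parp14) as mouse minus rat (adjusted P of at most 4.8e-05). In mouse all 3 fell, with log2 fold changes of -1.28 (SE 0.09), -1.13 (SE 0.10) and -1.42 (SE 0.15). In rat, Parp9 rose from a mean FPKM of 2.60 ± 0.331 (SD, n = 3) to 3.50 ± 0.411 (log2 fold change 0.41, SE 0.14, adjusted P = 0.0459). That call was lost without RC replicate 2, RC replicate 3, RM replicate 2 or RM replicate 3 (adjusted P of 0.0908 to 0.173). Dtx3l had 0.46 in rat (adjusted P = 0.0526) and Parp14 0.14 (0.396). Parp9 (chromosome 16, 35938470 to 35972605, plus strand) and Dtx3l (chromosome 16, 35926511 to 35939151, minus strand) overlap at their starts, and the sources used here do not give whether the counting used the strand.

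The IRF1-type genes did not move together in mouse. Gbp2 (chromosome 3, 142620602 to 142638008) was at 3.41, 4.15 and 3.23 FPKM in MC and at 16.2, 15.7 and 12.7 in MM, a 5.03-fold rise (log2 fold change 2.33, SE 0.09, adjusted P = 6.17e-33). It had the highest log2 fold change of the 43 genes tested in mouse. Irf1 (chromosome 11, 53770014 to 53778374) was lower, at 4.61, 4.32 and 4.71 in MC and 2.40, 2.94 and 2.75 in MM (log2 fold change -0.48, SE 0.10, adjusted P = 1.41e-05). Tap1 (chromosome 17, 34187553 to 34197225) was at 5.06, 5.39 and 4.71 in MC and at 1.88, 2.23 and 1.96 in MM (log2 fold change -1.04, SE 0.09, adjusted P = 1.13e-16). The groups did not overlap for any of the 3 genes. With library size alone the values were 2.05, -0.76 and -1.32, and without MC replicate 2 they were 2.44, -0.51 and -0.99. The MC libraries differed less in these genes than in the ISGF3-type genes other than Ifit2. The coefficients of variation were 13.6% (Gbp2), 4.48% (Irf1) and 6.74% (Tap1), against 11.9% for Ifit2.

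In rat none of the IRF1-type genes was called. Irf1 was at 11, 10.6 and 10.7 FPKM in RC and at 11, 12.3 and 11.6 in RM (log2 fold change 0.09, SE 0.08, adjusted P = 0.408). Gbp2 was at 0.550, 0.625 and 0.477 in RC and at 0.779, 0.794 and 0.639 in RM (log2 fold change 0.40, SE 0.24, adjusted P = 0.225). Tap1 was at 2.65, 2.90 and 2.71 in RC and at 2.90, 2.43 and 2.86 in RM (log2 fold change -0.03, SE 0.12, adjusted P = 0.855). Only the Gbp2 groups did not overlap. The species differed in each of the 3. The difference, mouse minus rat, was 1.93 for Gbp2 (95% interval 1.44 to 2.42, adjusted P = 3.76e-06), -0.57 for Irf1 (-0.82 to -0.32, adjusted P = 0.000768) and -1.01 for Tap1 (-1.29 to -0.73, adjusted P = 1.01e-05).

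Of the antigen presentation genes of the set outside the IRF1 type, B2m was higher and Tap2 lower in mouse. B2m (chromosome 2, 122147686 to 122153083) was at 463.6, 454.9 and 442.0 FPKM in MC and at 569.5, 655.3 and 645.5 in MM (log2 fold change 0.74, SE 0.03, adjusted P = 9.64e-30). In rat it was at 160.8, 131.2 and 159.1 in RC and at 186.7, 192.3 and 181.3 in RM (log2 fold change 0.30, SE 0.08, adjusted P = 0.0203), a call that was lost without RM replicate 1 (adjusted P = 0.0662) or RM replicate 2 (0.0808). All model libraries lay above all control libraries in both species. Tap2 (chromosome 17, 34203527 to 34216321), the partner of TAP1 in the peptide transporter, was at 4.97, 4.15 and 4.65 in MC and at 1.41, 1.65 and 1.45 in MM (log2 fold change -1.33, SE 0.11, adjusted P = 1.59e-16). In rat it was at 0.774, 0.626 and 0.344 in RC and at 0.829, 0.716 and 0.607 in RM, with overlap (log2 fold change 0.27, SE 0.30, adjusted P = 0.518).

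The heavy chains that pair with B2m are outside the 45 genes and stand here for comparison. In mouse, 7 of 8 H2 class I genes were higher in the MM group, against 37.4% of all mouse genes, and 0 were lower, against 37.7%. Their median log2 fold change was 2.21. H2-K1 was at 54.8, 53.6 and 52.3 FPKM in MC and at 298.7, 315.0 and 315.7 in MM (log2 fold change 2.81, SE 0.03, adjusted P = 8.61e-63). The log2 fold changes of H2-Q6, H2-Q7, H2-T23 and H2-Q4 were 5.76, 5.70, 2.41 and 2.01. These genes are near-identical in places, so reads could have been assigned to the wrong copy. In rat, 3 of 13 RT1 class I genes were higher, against 18.3% of all rat genes, and 0 were lower, against 16.8%. Their median was 0.27, and RT1-A2 had 0.81 (SE 0.15, adjusted P = 0.00178). Genes that supply or load peptides did not move one way in mouse. The immunoproteasome genes Psmb8, Psmb9 and Psmb10 had log2 fold changes of -1.30 (SE 0.31), -2.48 (SE 0.35) and -1.07 (SE 0.10), and none was called in rat (0.02, 0.05 and -0.29). The proteasome activator genes Psme1 and Psme2 had -0.04 (adjusted P = 0.611) and -0.70 (adjusted P = 9.31e-18) in mouse, and Tapbp, the tapasin gene that links TAP to class I, rose by 0.90 (adjusted P = 7.87e-29). Nlrc5, which activates class I genes, rose in mouse by 0.78 (SE 0.12, adjusted P = 2.02e-08) from a mean FPKM of 0.962 ± 0.104 (SD, n = 3), and had -0.43 in rat (adjusted P = 0.308). Of the 20 class I presentation genes outside the set that were tested in mouse, 10 were higher and 6 lower. With library size alone they were 10 and 10, where 3697 of all 14774 mouse genes tested were higher and 8077 lower. In rat 3 of 24 were higher and 1, Calr, a chaperone of class I assembly, was lower (log2 fold change -0.35, SE 0.06).

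**Figure D4:**
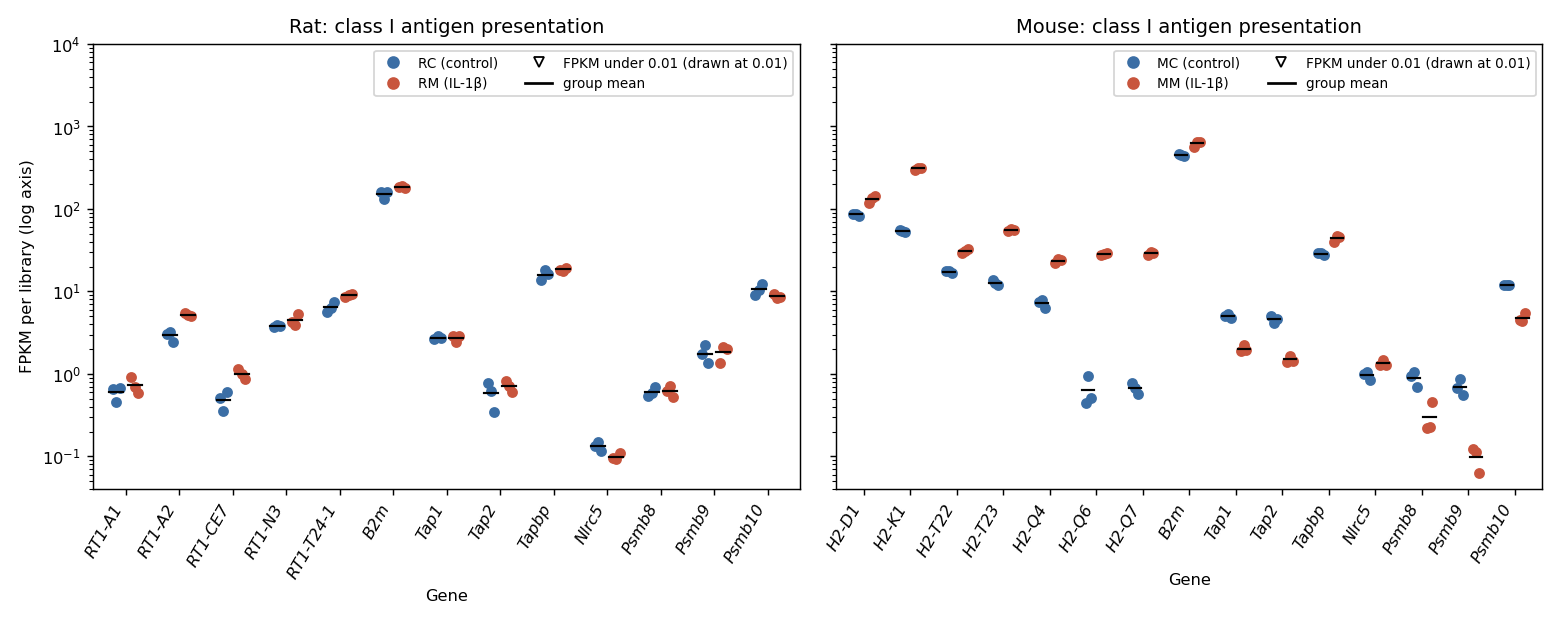
FPKM in every library on a log axis for class I heavy chains (RT1 in rat, H2 in mouse), B2m, the peptide transporter genes, Tapbp, Nlrc5 and the immunoproteasome genes, in rat (left) and mouse (right), with control in blue, model in red and lines at the group means. In mouse the heavy chains drawn and B2m lie higher in the MM group and Tap1, Tap2 and the Psmb genes lie lower. H2-M3, which was not called (-0.18, adjusted P = 0.218 by edgeR), and several RT1 genes are not drawn. In rat RT1-A2, RT1-CE7, RT1-N3, RT1-T24-1 and B2m lie higher in RM without overlap, and Nlrc5 lies lower without overlap. Of these, RT1-N3 and Nlrc5 were not called. The other rat genes drawn overlap.

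The kinases and feedback inhibitors of the same pathway stand outside the 45 genes. Jak2, the kinase of IFNGR2, rose in rat from a mean FPKM of 8.37 ± 1.52 (SD, n = 3) to 18.4 ± 1.52 (log2 fold change 1.12, SE 0.12, adjusted P = 6.79e-05) and had -0.05 in mouse (adjusted P = 0.446), a difference of -1.17 (adjusted P = 1.95e-06). Socs3, an inhibitor best known from IL-6 signalling, rose in both species, by 1.05 in rat (SE 0.10, adjusted P = 2.5e-05) and by 1.97 in mouse (SE 0.05, adjusted P = 2.17e-42). Socs1, the inhibitor of interferon receptors, fell in mouse by 0.62 (SE 0.13, adjusted P = 4.29e-05), and in rat it had -0.51 (adjusted P = 0.282). Over the whole list of 70 further interferon and presentation genes tested in mouse, 22 were higher and 36 lower, and of 59 in rat 13 were higher and 4 lower. The shares over all genes tested, given above, are 37.4% and 37.7% in mouse and 18.3% and 16.8% in rat.

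The levels of the set are given within each species, as FPKM. In the MC group 41 of the 45 genes had a mean FPKM of at least 1, and in the MM group 29. In rat the number was 28 in both groups. The median over the 45 genes of the mean FPKM was 5.84 in MC and 2.02 in MM, against 1.71 in RC and 1.58 in RM. The tables were made separately, so no level was tested across species. The change was tested, as mouse minus rat, for the 36 genes of the set that passed the filter in both species. Of these, 8 had the higher log2 fold change in mouse, against 31.5% of 10892 genes, and 19 had the higher in rat, against 32.4%.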

How the data were processed

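For each species the authors deposited 1 table of raw read counts per Ensembl gene and library, together with FPKM made from those counts. The deposited FPKM equalled the count divided by gene length and column total within 0.1% for 100% of the 79104 rat and 86999 mouse values checked. Per the submitters' processing notes, HISAT2, HTSeq 0.11.2 and the builds Rnor_6.0 and GRCm38 were used, and the role of strand in counting is not given there. Mouse coordinates are from GENCODE M21 (GRCm38). Rat coordinates of genes were not used here.

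Groups were taken from the sample labels, with 3 libraries each. The counts went through edgeR 4.0.16 (R 4.3.3): filterByExpr, TMM scaling and the quasi-likelihood test, fitted per species over all genes, with Benjamini-Hochberg adjustment. Every adjusted P in the text is from this test unless DESeq2 1.42.0 or limma 3.58.1 is named. The difference between species was an interaction term over shared symbols. For 1 gene in groups of 3, the smallest P that exact permutation allows is 0.1. Alternatives were DESeq2 and its size factors, library size alone, no filter, limma on log2(FPKM + 1) and log2(FPKM + 0.1), a stricter fold, no FPKM criterion, a replicate block, and each library left out. Counts were also simulated with a common dispersion per species and 1.5 log2 changes in genes with enough counts. Of the changed genes, 97.46% of 197 in rat, 98.5% of 200 in mouse and 98.03% of 304 for the difference were recovered. False calls made up 4.95%, 5.74% and 1.97% of the calls. Smaller changes and the wider spread of this set in MC were not simulated.

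The 45 genes, the further pathway list and the marker lists were chosen with earlier results of these data known. Every one of the 45 genes is named or counted. Those given per library are the ISGF3-type and IRF1-type genes, receptors, Stat2, Irf9, Irf7, Irf8, Tap2, B2m and, per species, the 4 others with the smallest P. Of the pathway list, the 8 genes with the smallest P in each species are named, together with Jak2, Socs1, Ifnb1, Nlrc5, Psmb8, Psmb9 and Psmb10. Ifne, Ifnk, Ifit3b, Igtp, Ifi47, Irgm1, Irgm2, Psme1, Psme2, Tapbp, H2-M3, RT1-CE7, RT1-N3, RT1-T24-1, H2-Aa, H2-Eb1, Cd74, Ciita and Oas2 are outside this rule and were chosen after their values were seen. Promoters were 250 bases before to 50 after the RefSeq start (GRCr8). A result for 1 gene named by this rule is not reported here.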

Additional observations from a re-analysis of the deposited data

Results flagged for a closer look

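Of the 36 genes of the set that could be tested in both species, 27 changed differently in mouse and rat by the test of the difference itself, the interaction term of the edgeR fit. The higher log2 fold change was in mouse for 8 of them, against 31.5% of all 10892 genes tested. It was in rat for 19, against 32.4%. The values here are the log2 fold change in mouse minus that in rat. In each case the adjusted P lay between 5.74e-08 (Stat2) and 0.00832 (Ifitm1). Species, the tables' annotation and the laboratory handling of each species cannot be told apart in this design.

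Among the genes with the higher value in mouse, the receptor genes Ifnar2, Ifngr2 and Ifnar1 differed by 0.89, 0.82 and 0.26, and the last turned to -0.04 with library size alone and with limma at both pseudocounts. Gbp2 of the IRF1 type differed by 1.93 and B2m by 0.44, and B2m was not called with library size alone (0.15, adjusted P = 0.202). Of the effectors, Isg20 differed by 1.83 and Ifitm2 by 0.63. Ifitm1 differed by 1.87, on 65 and 16 counts over the rat groups and 58 and 47 over the mouse groups.

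The other 19 genes had the higher value in rat. The ISGF3-type genes Isg15 and Ifit2 differed by -2.73 and -1.69. The IRF1-type genes Tap1 and Irf1 differed by -1.01 and -0.57, and Tap2 by -1.58. The transcription factors Stat2, Irf7 and Irf9 differed by -1.61, -1.16 and -0.84. The values of the effectors were -3.66 for Oasl2, -1.85 for Xaf1, -1.79 for Ifi44 and -1.04 for Ifi35. The enzymes of ISG15, Usp18 and Herc6, had -3.03 and -2.16. The sensor genes Ifih1 and Ddx58 had -2.47 and -0.89. Parp9, Dtx3l and Parp14 had -1.69, -1.59 and -1.56.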

How the results depend on the processing

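Of 1724 values of single genes recomputed under the alternatives, 1640 kept their side of the threshold, 46 gained a call, 32 lost one and 6 called values reversed. A change of sign in a value that was not called was not counted as a reversal. Rsad2 in mouse is such a value, at -0.29 in the main fit and 0.14 without MC replicate 2. Of 154 recomputed counts, 143 stayed within 1.5 times the reported one. The number of genes higher in rat (7) ranged from 4 to 8 when 1 library was left out, falling to 4 without RC replicate 3, RM replicate 1, RM replicate 2 or RM replicate 3, and the number lower (3) ranged from 3 to 5, with 5 without RC replicate 1. The number upregulated by the DEG criteria in rat (0) ranged from 0 to 1 and was 2 without the FPKM criterion. In mouse that number (5) was 3 with library size alone, 2 with limma on log2(FPKM + 1) and 3 with limma on log2(FPKM + 0.1). The log2 fold change of Ifngr1 in mouse reversed to -0.10 with library size alone and to -0.09 and -0.10 with limma at the larger and smaller pseudocount, and the species difference of Ifnar1 reversed to -0.04 in all 3. That of B2m was not called with library size alone (0.15, adjusted P = 0.202). Library size alone and limma leave out the TMM factors. Of the calls, 2 of 7 higher and 3 of 3 lower in rat and 8 of 11 higher and 27 of 28 lower in mouse held in all 13 alternatives. Calls in rat lost without 1 library rested on log2 fold changes of 0.76 or less, and Rsad2 in mouse was called lower (-0.61, adjusted P = 0.00648) without MC replicate 3. Over all genes, same-numbered libraries did not deviate together (correlations of 0.0241, -0.0977 and 0.0849 in rat and 0.00124, 0.0149 and 0.00482 in mouse). Not every library correlated best with its own number. Such correlations over 3 libraries per group cannot tell whether same-numbered libraries share animals or a culture, which was not tested. Within this set, replicate 2 was highest for 67.4% of genes in MC and 63.2% in MM, against 32% and 32.2% of all genes. In RM it was highest for 47.1%, against 32.4%, and in RC for 33.3%, against 31.8%. With a replicate block, Parp9 in rat lost its call (0.41, adjusted P = 0.065) and the species difference of Cmpk2 gained one (-0.77, adjusted P = 0.0174). Depth limits the 8 rat and 2 mouse genes that could not be tested.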

Other observations

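Outside the 45 genes, 4 interferon-inducible GTPase genes were tested for a difference between the species, and Gbp7, Gbp6 and Igtp differed. Gbp7 had 9 counts over the RC libraries and 512 over the RM libraries, a log2 fold change of 5.74 (SE 0.31, adjusted P = 4.66e-07), with an FPKM of 0.107, 0.0688 and 0.0252 in RC and of 3.72, 4.28 and 3.62 in RM. In mouse it fell from 1.75, 2.57 and 1.78 in MC to 0.542, 0.601 and 0.418 in MM (log2 fold change -1.67, SE 0.16, adjusted P = 9.93e-15), and the difference was -7.41 (adjusted P = 2.76e-11). Gbp6 rose in rat as well (log2 fold change 3.09, SE 0.31, adjusted P = 3.59e-05) and had 0.54 in mouse (adjusted P = 0.0873). The differences of Gbp6 and Igtp were -2.53 (adjusted P = 6.34e-05) and -1.53 (adjusted P = 0.000607), and that of Ifi47 was -0.96 (95% interval -2.12 to 0.20, adjusted P = 0.168). Gbp genes are close relatives, so reads could have been split among them. Genes were matched between the species by symbol alone, and whether a shared Gbp symbol stands for the same gene in both was not tested. Of the 9 GTPase genes outside the set tested in mouse, 8 were lower and 0 higher, where 37.7% of all genes were lower and 37.4% higher. Gbp2, which is in the set and not among these 9, rose in mouse (log2 fold change 2.33). In rat, where the genes of the list are partly others, 2 of 6 were higher, against 18.3% of all genes, and 1 was lower, against 16.8%. Irgm1 and Irgm2, GTPases that act on vacuoles holding microbes, had -2.04 and -2.28 in mouse.

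The class II gene H2-Ab1 was at 1.86, 1.38 and 1.77 FPKM in MC and at 81, 80 and 81.8 in MM, a log2 fold change of 5.87 (SE 0.07, adjusted P = 4.49e-60). Its partner chain H2-Aa had 0 counts over MC and 3 over MM, and H2-Eb1 was not called (0.30, adjusted P = 0.474). Of the 4 class II genes tested in mouse, H2-Ab1 alone was higher and 0 were lower. The class II presentation gene Cd74 had 6 counts over MC and 38 over MM and was not tested. In rat Cd74 was called higher (1.80, adjusted P = 0.0144) on 9 and 33 counts. Ciita, of the same list, had 3 counts over RC and 23 over RM, too few to be tested. Among the sensing genes, Ikbke, a kinase that activates IRF3, rose in both species, by 0.55 in rat (adjusted P = 0.000519) and by 1.73 in mouse (adjusted P = 1.64e-36). Cgas, the sensor of cytoplasmic DNA, rose in rat by 0.90 (adjusted P = 0.00181) and fell in mouse by 1.24 (adjusted P = 1.77e-07). Plscr1, a phospholipid scramblase with antiviral activity, rose in mouse by 2.44 (adjusted P = 1.58e-39), from 4.75, 4.34 and 4.66 FPKM in MC to 20.8, 20.5 and 20.1 in MM. Oas2 had 71 counts over MC and 0 over MM, at least 26-fold lower.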
